A study of Mus musculus with 12 samples.

Results

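Bone-marrow-derived macrophages lacking Alpk1 were compared after ADP-heptose and after PBS, to ask which RNAs change when the known receptor of this sugar is missing. The comparison uses 6 of the series' 12 libraries. All cells were primary macrophages grown from mouse marrow for 7 days in L929-conditioned medium, on a background labelled C57BL/6N. The 3 KO PBS libraries came from Alpk1-/- cells given PBS for 4 h, and the 3 KO ADP-Hep libraries from Alpk1-/- cells given 100 µM ADP-heptose (ADP-Hep) for 4 h. The other 6 libraries came from wild-type (WT) cells, 3 with PBS and 3 with 100 µM ADP-Hep for 4 h, and serve here only to place the KO values. The labels give the genotype as an Alpk1 knockout without naming the deleted part, the number of mice, or whether WT and KO mice were littermates. KO libraries are listed as replicates 1, 2 and 3 for PBS, and as replicate 1, replicate 3 and an unnumbered library for ADP-Hep, because 1 of the table's KO ADP-Hep columns carries a number that no label gives.

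ADP-heptose is a sugar nucleotide that Gram-negative bacteria make on the way to lipopolysaccharide. In the cytosol it binds the kinase ALPK1, which phosphorylates the adaptor TIFA; TIFA then recruits TRAF proteins and activates NF-kB and MAP kinases. Type I interferons act through a separate route, in which the receptor IFNAR activates JAK kinases and factors of the STAT and IRF families, which bind interferon-stimulated response elements (ISREs) in the promoters of antiviral genes.

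The rows of the table that could be used held 73.0 to 85.2% of the counts of the KO libraries, whose totals ran from 16193668 to 31044021, and 12261 genes were tested. Of 13 mitochondrial mRNAs, 7 were tested and the other 6 (mt-Co2, mt-Co3, mt-Atp6, mt-Atp8, mt-Nd3 and mt-Nd4l) had 0 counts in all 12 libraries. All genes whose symbol starts with mt-, mRNAs or not, were summed. They took 1.25 to 1.69% of the counts in KO PBS and 1.69 to 2.03% in KO ADP-Hep libraries. Their part in the results below was not tested beyond leaving them out of the library sizes, which gave 1617 genes called higher and 1942 called lower in place of the counts given next. The first principal component over the KO libraries held 51.7% of the variance and set PBS (-22.9, -12.6 and -20.2) apart from ADP-Hep (19.3, 16.0 and 20.4). Among KO PBS libraries, replicate 2 lay nearest to the ADP-Hep libraries. Macrophage markers (8 of 8 detected) summed to 26586 to 27452 in KO PBS and 25745 to 26474 in KO ADP-Hep libraries, in CPM (counts scaled to an equal library size after TMM normalisation). Of 9 T and NK cell markers, Cd3e, Cd3g, Trbc2 and Ncr1 had 0 counts in the 6 KO libraries, as had Hba-a1, Hba-a2, Hbb-bs and Hbb-bt among the erythroid markers.

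Without Alpk1, 1678 genes were higher after ADP-Hep than after PBS (13.7% of those tested) and 1870 were lower (15.3%), at an adjusted p under 0.05 in edgeR's quasi-likelihood test. Most of these changes were small. The median size among the 3548 called genes was 0.31 on the log2 scale, and 2900 of them (81.7%) were under 1.5-fold. At least 2-fold changes were called higher in 94 genes (0.767%) and lower in 135 (1.10%). Of these, 37 of the 94 and 54 of the 135 reached 5 CPM in the group where they were higher, and in all 37 and all 54 the KO PBS and KO ADP-Hep libraries did not overlap. Over all genes tested, 5148 (42.0%) had KO PBS and KO ADP-Hep libraries without overlap, 2585 of them higher and 2563 lower. With library totals in place of TMM scaling, 2360 genes were higher and 1483 lower, so that 61.4% in place of 47.3% of calls were increases, and the median of all genes moved to 0.05. With KO PBS replicates 1 and 3 left out together, a setting added after the data were seen, the counts were 661 higher and 1054 lower. That fit holds 1 KO PBS library, assumed to vary like the other groups, so a call can be lost there where its size is kept. No label says whether the libraries of a group came from different cultures or animals, so the p-values reflect only how these libraries vary, which can be technical.

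In WT cells the same treatment changed more genes and by more. There, 3914 genes were higher (31.9%) and 3871 lower (31.6%), or 2990 and 4927 with library totals as scaling, with a median size of 0.50 among called genes. The test of the difference between the genotypes, WT response minus KO response (the interaction), was called for 6071 genes (49.5%), 3018 with WT above KO and 3053 below (2020 and 4507 with library totals). Of the 3548 genes called in KO cells, 1990 changed in the same direction in WT cells; for 923 of these the interaction was not called, and for 72 it was called with the larger change in KO cells. In 747 genes the KO and WT changes were both called, in opposite directions and with the interaction called. Another 454 genes were called in KO cells and not in WT cells, with the interaction called. Across the 12261 genes the log2 changes of the genotypes, which share no library, correlated with Pearson's r = 0.235 and Spearman's rho = 0.248; genes are not independent replicates, and these describe the genes only.

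**Figure D1:**
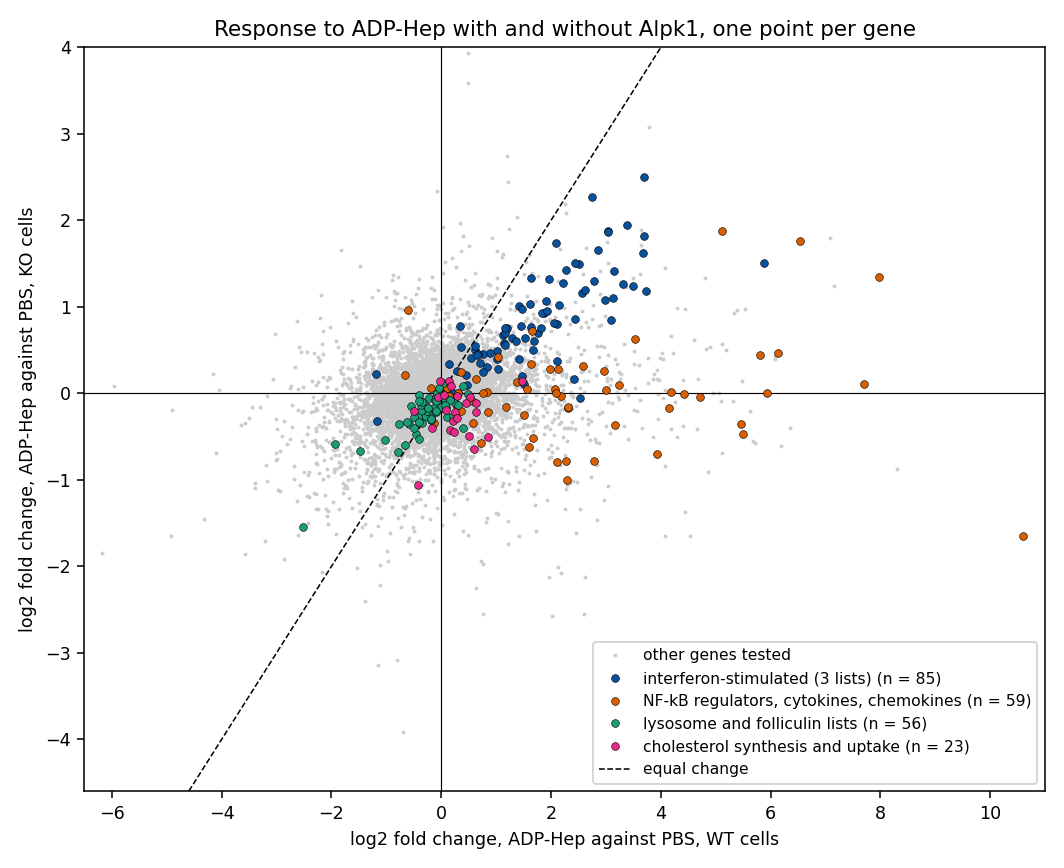
Each point is a gene, with its log2 change after ADP-Hep in WT cells on the horizontal axis and in KO cells on the vertical axis; coloured points are members of 4 groups of gene lists and the dashed line marks equal change. Interferon-stimulated genes lie to the upper right and mostly below the line, NF-kB and cytokine genes spread along the horizontal axis near a KO change of 0, and lysosomal and folliculin genes lie to the lower left.

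Of the targeted gene, Alpk1, the whole-gene level stood at 22.3, 20.3 and 21.3 CPM in KO PBS and 21.6, 19.2 and 22.4 CPM in KO ADP-Hep libraries, and at 30.1, 32.1 and 25.9 CPM in WT PBS libraries. The KO groups overlapped, with a log2 change of 0.00 ± 0.083 (edgeR adjusted p = 0.996). Reads were still counted over the gene in KO cells. Since the deleted part is not given, this count does not check the genotype. In WT cells Alpk1 rose after ADP-Hep (0.89 on the log2 scale), and the interaction was 0.89 ± 0.11 (edgeR adjusted p = 2.08e-07).

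Interferon-stimulated genes rose without Alpk1. Of 85 tested members of 3 lists of such genes, 70 rose (82.4%, against 13.7% of all genes) and 1 fell. Groups without overlap were likewise 70 higher and 1 lower, with 69 genes in both counts. Over all 12261 genes tested, groups without overlap were 2585 higher and 2563 lower. The median log2 change of the 85 members was 0.75, against 0.01 over all genes tested. The lists were chosen with earlier results of these data known, so this count describes them and is not independent evidence. Of the 94 genes called higher by at least 2-fold, 29 were in the 3 lists.

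Promoter stretches of 7 named genes that rose are shown here because each holds the sequence that interferon-activated factors bind; they were chosen for that match and do not stand for all genes that rose. Among the largest increases, Oasl1, Tnfsf10, Cmpk2, Ifi209 and Ifit2 had no match in their promoter window. Each stretch is from RefSeq's GRCm38.p6 assembly, 5′ to 3′ on the gene's own strand and upstream of its transcription start, and capitals mark matches to the ISRE core GAAANNGAA or its reverse complement.
Ifit3 (chr19:34583349-34583460, plus strand): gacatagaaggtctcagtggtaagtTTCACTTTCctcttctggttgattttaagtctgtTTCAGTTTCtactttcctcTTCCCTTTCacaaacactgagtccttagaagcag
Ifit1 (chr19:34640755-34640838, plus strand): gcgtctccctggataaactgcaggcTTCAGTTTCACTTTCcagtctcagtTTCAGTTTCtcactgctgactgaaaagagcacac
Gbp3 (chr3:142559975-142560039, plus strand): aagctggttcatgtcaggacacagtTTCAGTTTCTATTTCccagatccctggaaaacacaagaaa
Gbp7 (chr3:142530259-142530317, plus strand): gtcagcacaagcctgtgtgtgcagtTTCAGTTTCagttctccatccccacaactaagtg
Irgm2 (chr11:58214888-58214946, plus strand): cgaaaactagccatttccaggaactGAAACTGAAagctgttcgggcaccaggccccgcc
Cxcl10 (chr5:92349069-92349127, minus strand): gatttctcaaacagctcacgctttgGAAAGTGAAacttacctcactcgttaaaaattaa
Socs1 (chr16:10785580-10785644, minus strand): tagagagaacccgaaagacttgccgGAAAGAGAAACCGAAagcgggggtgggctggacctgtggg
Ifit3 and Ifit1 each hold 3 matches, those in the first run of Ifit1 overlapping, and Gbp3 and Socs1 hold 2 that overlap. The near copy Ifit3b has the same letters as Ifit3 over this stretch. Promoters, taken as 250 bases before to 50 after the start, were matched by symbol for 9522 of the 12261 genes tested. On either strand the ISRE core was found in 23 of 71 promoters of genes called higher by at least 2-fold (32.4%), in 42 of 68 promoters of the 3 lists (61.8%) and in 836 of all 9522 (8.78%). It was found in 9.80% of promoters of genes called lower by at least 2-fold. Among genes called higher by at least 2-fold outside the 3 lists, 7 of 48 promoters held it (14.6%). A match is a description of the letters, not of a bound site.

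The IFIT proteins, which bind viral RNA, were among the largest increases. Ifit3 stood at 12.2, 14.4 and 13.1 CPM in KO PBS and 53.6, 55.5 and 37.8 CPM in KO ADP-Hep libraries. Its log2 change was 1.87 ± 0.19 (edgeR adjusted p = 6.81e-05), and the lowest ADP-Hep library lay above the highest PBS library by more than the whole spread of either group. Ifit1 rose from 15.6, 20.1 and 15.4 CPM to 62.8, 51.9 and 43.3 CPM, a log2 change of 1.62 ± 0.21 (edgeR adjusted p = 0.000384). In WT cells Ifit1 went from 16.5 to 23.9 CPM to 238 to 303 CPM. The WT change exceeded the KO change by 2.06 ± 0.29 on the log2 scale (edgeR adjusted p = 0.000286), while the PBS levels of the genotypes lay close together. Ifit2 rose by 1.30 and Ifit1bl1 by 1.42 on the log2 scale. Neither had overlap between the KO groups, which the rule that named them required. Ifit3b rose from 1.86, 2.28 and 1.93 CPM to 13.5, 12.7 and 8.71 CPM, but reads of Ifit3 and Ifit3b can have been shared between them, so their separate sizes are uncertain. The tested members of this cluster sit together at chr19:34550694-34650009 (mm10), where 5 of 6 were called higher. Within 1 Mb on either side, 1 of 9 tested genes was called higher and 2 lower.

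Other antiviral effectors moved the same way. Rtp4, a chaperone of membrane receptors that is induced by interferon, stood at 11.9, 14.98 and 15.9 CPM in KO PBS and 39.9, 44.9 and 37.6 CPM in KO ADP-Hep libraries. The change was 1.504 ± 0.095 on the log2 scale (edgeR adjusted p = 5.49e-11), with all ADP-Hep libraries more than 2-fold above all PBS libraries. Cmpk2, a nucleotide kinase next to the antiviral gene Rsad2, went from 20.2, 23.6 and 23.8 CPM to 68.7, 66.5 and 45.4 CPM (1.41 ± 0.21, edgeR adjusted p = 0.00105). Oasl1, of the oligoadenylate synthetase family, went from 1.13 to 1.44 CPM to 3.38 to 6.29 CPM. Trim30a, Eif2ak2 (the double-stranded RNA-activated kinase PKR) and the nuclear body protein gene Sp100 rose by 0.76, 0.67 and 0.55 on the log2 scale. For Sp100 the WT change was 0.61 and the interaction was not called (0.06 ± 0.075, edgeR adjusted p = 0.542). In the list of antiviral effectors as a whole, 38 of 49 tested members were called higher and 0 lower at the edgeR threshold, with a median log2 change of 0.60 in KO and 1.42 in WT cells. The mean log2 CPM of its members lay at 5.03 to 5.29 in KO ADP-Hep libraries. That was above the PBS libraries of both genotypes (KO 4.44 to 4.53, WT 4.50 to 4.61) and below WT ADP-Hep libraries (5.91 to 6.12).

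**Figure D2:**
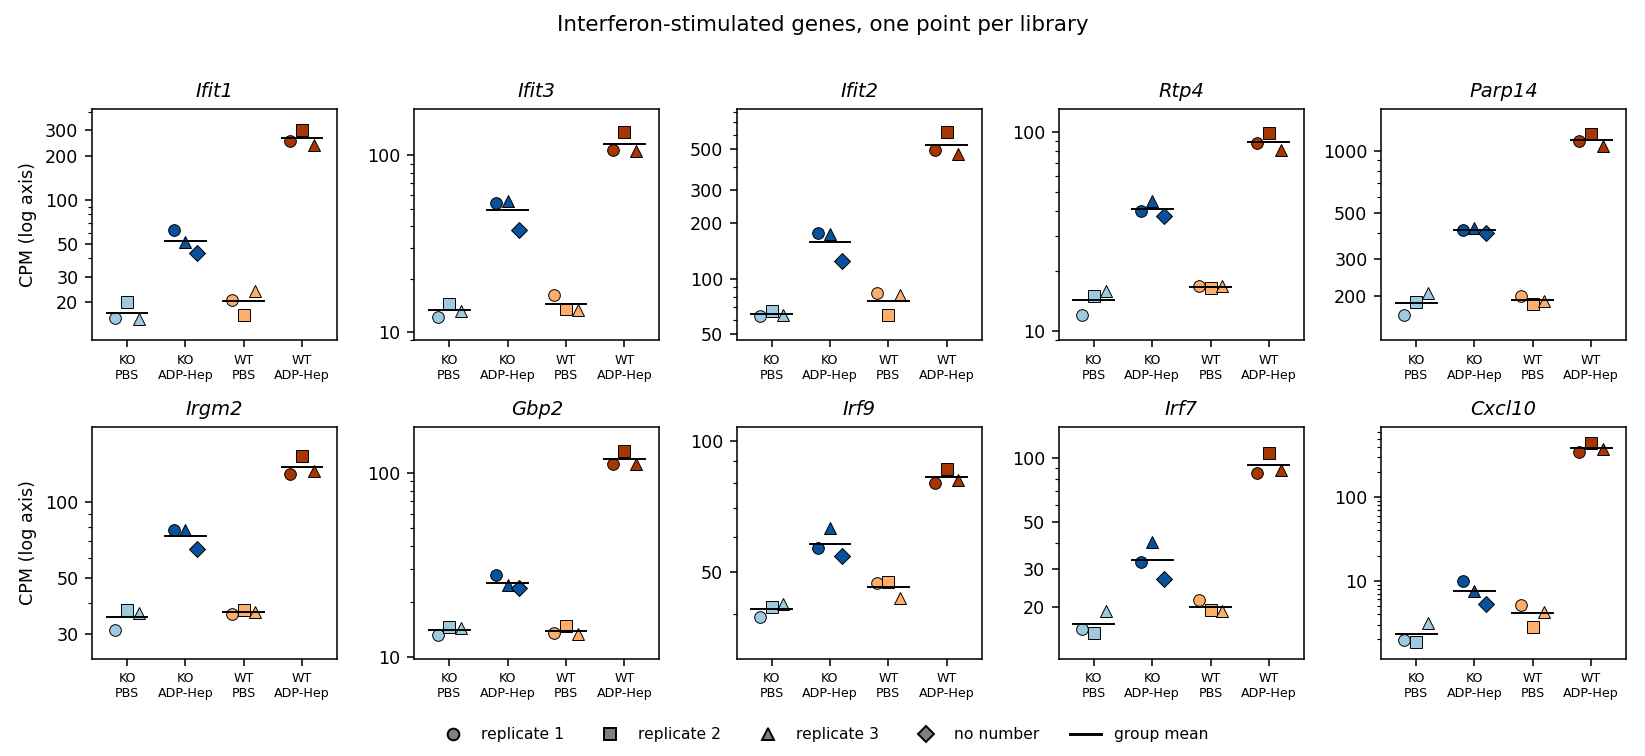
CPM on a log axis for 10 interferon-stimulated genes in the 4 groups; each point is a library, shaped by its replicate number, and the bar is the group mean. In every panel the KO ADP-Hep points lie above the KO PBS points and below the WT ADP-Hep points.

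GTPases that attack the vacuoles of intracellular pathogens formed the second group. Of 12 tested guanylate-binding proteins and immunity-related GTPases, 11 rose and 0 fell, with a median log2 change of 1.05 in KO and 2.04 in WT cells. Iigp1 stood at 4.18, 3.18 and 2.66 CPM in KO PBS and 19.7, 15.9 and 12.6 CPM in KO ADP-Hep libraries, against 3.42 to 4.30 CPM in WT PBS and 21.2 to 30.7 CPM in WT ADP-Hep libraries. Its log2 change was 2.27 ± 0.23 in KO cells (edgeR adjusted p = 5.64e-06) and 2.74 in WT cells, and the interaction of 0.47 ± 0.34 was not called (edgeR adjusted p = 0.273). Gbp7 went from 13.5, 15.9 and 12.97 CPM to 38.0, 36.8 and 32.8 CPM (1.33 ± 0.11, edgeR adjusted p = 3.03e-08), again with an interaction that was not called (0.31 ± 0.16, edgeR adjusted p = 0.107). Gbp2 differed: it rose by 0.85 in KO and 3.10 in WT cells, with an interaction of 2.24 ± 0.12 (edgeR adjusted p = 1.39e-13). Irgm2 went from 31.2, 37.3 and 36.3 CPM to 77.5, 77.8 and 65.1 CPM in KO cells, and its neighbour Igtp from 11.6, 11.3 and 13.3 CPM to 23.1, 24.1 and 22.9 CPM. Both changes, 1.07 and 0.96 on the log2 scale, were about as large as the list's median and free of overlap. Among genes found together, 3 of 3 tested in the Gbp cluster at chr3:142530342-142638008 (mm10) and 2 of 3 in that at chr5:105014150-105139586 (mm10) were called higher, with 0 of 4 and 1 of 11 in their flanks of 1 Mb. Igtp and Irgm2 were both called higher, with 5 of 28 in their flanks, as were 3 of 6 tested genes of the Oas cluster, with 2 of 22 in its flanks.

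Of 24 tested members of interferon-linked PARP, Schlafen and PYHIN families, 21 rose and 1 fell, with a median of 0.76 in KO and 1.73 in WT cells. Parp14, a mono-ADP-ribosyltransferase, stood at 162, 188 and 207 CPM in KO PBS and 418, 424 and 404 CPM in KO ADP-Hep libraries. The log2 change was 1.16 ± 0.069 (edgeR adjusted p = 2.91e-10), with no overlap between the groups. Slfn8 rose by 0.76, and the PYHIN genes Ifi203, Ifi209 and Ifi211, relatives of the DNA sensors, by 0.80, 1.33 and 1.10 on the log2 scale. The exception was Aim2, the DNA sensor of the inflammasome, which stood at 42.6, 38.7 and 45.0 CPM in KO PBS and 37.8, 35.2 and 35.8 CPM in KO ADP-Hep libraries (-0.21 ± 0.065, edgeR adjusted p = 0.0178); its call was lost without KO PBS replicate 1 or 3, without KO ADP-Hep replicate 3 and without the unnumbered library. In the PYHIN cluster at chr1:173350879-174031810 (mm10), 10 of 12 tested genes were called higher, and within 1 Mb on either side 1 of 10. In the Slfn cluster at chr11:82951349-83122670 (mm10) 4 of 7 tested genes were called higher and 1 lower, and in its flanks 8 of 30 were higher. The PARP trio Parp9, Dtx3l and Parp14 and a neighbour at chr16:35832874-35972605 (mm10) gave 3 of 4 higher, with 2 of 24 in its flanks.

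Across these 70 genes the KO ADP-Hep libraries differed in a common way. The unnumbered KO ADP-Hep library was the lowest of the 3 in 68 of the 70 genes, and replicate 3 was the lowest in the other 2. It was low for Ifit3, Ifit1, Cmpk2 and Oasl1 in particular. In each it lay above every KO PBS library, which the rule that named these genes required. Leaving it out gave 73 of 85 members higher and 0 lower, and leaving out each KO library in turn gave 64 to 73 higher. Without KO PBS replicates 1 and 3 together, 57 of 85 were higher and 0 lower. For 53 of the 70 the WT increase was also called and the interaction called with WT above KO. For 14 both increases were called and the interaction was not. No member of the first 2 of these lists had an unadjusted p under 0.05 for a fall, and DESeq2 and limma-voom called 0 lower in each. Members of a list share a library and a cell source and are not replicates of the treatment.

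The ligands that drive such genes had few or no counts. Ifnb1, the main early type I interferon of macrophages, had 0 counts over the 3 KO PBS libraries and 0 over the 3 KO ADP-Hep libraries, which allows a level of up to 0.0714 and 0.0553 CPM (3 counts over each group, counting error only). It had 1 count over the WT PBS and 14 counts over the WT ADP-Hep libraries. Ifna1, Ifna2, Ifna4, Ifna5, Ifng, Ifnl2 and Ifnl3 had 0 counts in all 12 libraries. The table also holds 0 counts for mt-Co2, which every cell uses, so a 0 here is not read as absence of the RNA. The receptor genes Ifnar1, Ifnar2 and Ifngr2 did not pass the test in KO cells. Ifnar1 stood at 194, 212 and 189 CPM in KO PBS and 202, 208 and 198 CPM in KO ADP-Hep libraries (0.03 ± 0.047, edgeR adjusted p = 0.696). The log2 changes of Ifnar2 and Ifngr2 were -0.06 and 0.01. The KO values of Jak1 and Tyk2 overlapped as well, with log2 changes of -0.02 and 0.01. Ifnar1 rose by 0.92 in WT cells, and its interaction of 0.89 ± 0.065 was called (edgeR adjusted p = 1.81e-11). Of the 19 genes on the list of interferon ligands, receptors and kinases, 8 passed the filter on low counts. Of these 2 rose and 1 fell in KO cells, against 13.7 and 15.3% of all genes. With a replicate block, and the unnumbered library left out, 0 rose and 1 fell. Il10rb fell by 0.28, Jak2 rose by 0.20 and Ifngr1 by 0.14 on the log2 scale; without KO PBS replicates 1 and 3 these were 0.24 and 0.07. The call of Ifngr1 was lost without KO PBS replicate 1 or 3, KO ADP-Hep replicate 1 or the unnumbered library.

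Among transcription factors of the STAT and IRF families, 7 of 15 tested genes rose, 1 fell and 7 were not called (13.7% of all genes rose). Irf7, the amplifier of interferon production, went from 15.7, 15.1 and 19.0 CPM to 32.4, 40.3 and 27.0 CPM (0.99 ± 0.16, edgeR adjusted p = 0.000791) in KO cells. Irf9, the DNA-binding partner of STAT proteins, stood at 39.5, 41.6 and 42.1 CPM in KO PBS and 56.6, 63.0 and 54.5 CPM in KO ADP-Hep libraries (0.49 ± 0.062, edgeR adjusted p = 1.17e-06). The KO groups did not overlap for either gene. Irf5 rose by 0.28, while Irf8, a lineage factor of macrophages, fell by 0.22 on the log2 scale. Without KO PBS replicates 1 and 3, 4 of the 15 rose.

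Feedback inhibitors of interferon signalling split. Socs1, an inhibitor of JAK kinases, stood at 0.224, 0.659 and 0.725 CPM in KO PBS and 1.89, 1.65 and 1.79 CPM in KO ADP-Hep libraries, a log2 change of 1.72 ± 0.32 at a low level (edgeR adjusted p = 0.000163). Usp18, which removes the ubiquitin-like ISG15 and blocks IFNAR2, went from 6.49, 7.25 and 7.41 CPM to 17.6, 15.5 and 11.1 CPM (1.06 ± 0.18, edgeR adjusted p = 0.000478). Socs6 moved the other way, from 147, 156 and 155 CPM to 78.5, 74.4 and 76.9 CPM (-0.99 ± 0.053, edgeR adjusted p = 4.14e-13), and fell by more in WT cells, by 2.15 on the log2 scale. All 3 genes had libraries that did not overlap. Over the list, 3 of 13 tested inhibitors rose and 2 fell, against 13.7 and 15.3% of all genes, and 2 rose and 1 fell without KO PBS replicate 1, KO ADP-Hep replicate 1 or the unnumbered library. The other fall was that of Socs7 (-0.21), whose call was lost in 10 of 19 alternatives.

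Sensors of nucleic acids that are themselves interferon-stimulated rose. Ddx58, which encodes the RNA sensor RIG-I, went from 41.8, 48.7 and 43.2 CPM to 81.8, 85.2 and 77.7 CPM (0.86 ± 0.077, edgeR adjusted p = 2.70e-08). Ifih1, which encodes MDA5, rose by 0.56, Dhx58 by 0.97 and the Z-nucleic acid sensor gene Zbp1 by 1.07 on the log2 scale. Tlr7, the endosomal RNA receptor, fell by 0.53 instead, from 297 to 314 CPM to 195 to 218 CPM. Over the list, 6 of 17 tested genes rose and 2 fell, with a median near that of all genes (0.01). In antigen presentation, Tap1, the peptide transporter, went from 55.4, 65.6 and 54.8 CPM to 87.5, 95.6 and 78.4 CPM (0.56 ± 0.084, edgeR adjusted p = 5.97e-05), and 5 of 16 tested genes of the class I pathway rose and 1 fell, against 13.7 and 15.3% of all genes. Of these, 2 rose without KO ADP-Hep replicate 1 and 3 without KO PBS replicate 1 or 2, and 0 fell without KO PBS replicate 1 or 3 or the unnumbered library. The gene that fell was H2-D1, by 0.13 on the log2 scale.

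Secreted interferon-stimulated products were low in KO cells. Cxcl10, a chemokine for T cells, stood at 1.94, 1.86 and 3.14 CPM in KO PBS and 9.83, 7.54 and 5.33 CPM in KO ADP-Hep libraries, against 2.78 to 5.14 CPM in WT PBS and 347 to 436 CPM in WT ADP-Hep libraries. The KO groups did not overlap, which the rule that named Cxcl10 required. Its log2 change of 1.76 ± 0.37 was called (edgeR adjusted p = 0.00668) and ran from 1.46 to 2.04 over 19 alternatives. Tnfsf10, the death ligand TRAIL, went from 1.72, 1.38 and 1.45 CPM to 5.80, 5.26 and 4.13 CPM (1.75 ± 0.20, edgeR adjusted p = 3.43e-07). The CC chemokine gene Ccl12 rose by 1.88 from 0.895, 0.420 and 1.21 CPM to 3.23, 3.22 and 2.49 CPM, a size that reached 2.80 without KO PBS replicates 1 and 3. The interaction was called for all 3, at 4.78, 1.28 and 3.23 on the log2 scale, with the larger change in WT cells.

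NF-kB regulators, cytokines, chemokines and inducible effector enzymes, the main response of WT cells, did not rise as groups without Alpk1. Of 77 tested members of these 4 lists, 12 rose (15.6%) and 19 fell (24.7%) in KO cells, against 13.7 and 15.3% of all genes. Their median was near 0 in KO cells, while 69 rose in WT cells with a median of 2.08. Without KO PBS replicates 1 and 3 together, 9 rose and 7 fell. Tnf stood at 6.79, 6.53 and 7.495 CPM in KO PBS and 4.20, 4.71 and 3.93 CPM in KO ADP-Hep libraries, and at 8.19 to 11.7 CPM and 139 to 159 CPM in WT cells. It fell in KO cells (-0.71 ± 0.15 on the log2 scale, edgeR adjusted p = 0.000679, and -0.63 without KO PBS replicates 1 and 3), and rose by 3.92 in WT cells. Ccl3, a chemokine for monocytes, went from 23.9, 20.6 and 24.6 CPM to 11.97, 10.8 and 11.3 CPM (-0.999 ± 0.085, edgeR adjusted p = 1.55e-09). Ccl4, its neighbour, fell by 0.78 on the log2 scale, and by 0.51 without KO PBS replicates 1 and 3. In WT cells Ccl3 and Ccl4 rose by 2.30 and 2.27, so the genotypes moved in opposite directions with interactions of 3.30 and 3.04. Tnip1, an inhibitor of NF-kB, fell from 114, 119.6 and 119 CPM to 75.1, 79.7 and 75.2 CPM, and N4bp1, a ribonuclease, rose by 0.34 on the log2 scale. Over the NF-kB list alone, 3 of 22 tested members rose and 8 fell in KO cells, and 3 fell without KO PBS replicates 1 and 3.

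Of 18 tested genes of the route from ALPK1 to NF-kB, 4 rose and 3 fell in KO cells, against 13.7 and 15.3% of all genes, with a median of 0.03 in KO and 0.57 in WT cells. Without the unnumbered library 2 rose and 1 fell, and with any 1 KO library left out, except KO PBS replicate 1, only 1 fell. Tifa stood at 107, 109.6 and 106 CPM in KO PBS and 119, 107 and 118 CPM in KO ADP-Hep libraries, which overlapped (0.10 ± 0.055, edgeR adjusted p = 0.209). Traf6, Traf2, Tab1, Tab2, Tab3, Map3k7, Ube2n, Ikbkb and Nfkb1 also did not pass the test, with log2 changes between -0.10 and 0.12. Tifab, a relative of Tifa, rose from 72.0 to 87.5 CPM to 89.3 to 101 CPM (0.29, or 0.13 without KO PBS replicates 1 and 3) in KO cells and fell by 0.94 on the log2 scale in WT cells. The other called members moved by small amounts: Birc2 rose by 0.32, Chuk by 0.21 and Ikbkg by 0.16, and Rela, Birc3 and Traf3 fell by 0.21, 0.17 and 0.17 on the log2 scale. Each of these calls except that of Birc2 was lost without at least 1 single KO library.

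Folliculin and Rag GTPase genes fell without Alpk1. Folliculin (FLCN) with its partners FNIP1 and FNIP2 acts on the Rag GTPases at the lysosome and controls the factors TFEB and TFE3, which drive lysosomal genes. Of 21 tested members of this list, 11 fell and 0 rose (15.3% of all genes were lower). Fnip2 stood at 847, 889 and 850.0 CPM in KO PBS and 285, 313 and 289 CPM in KO ADP-Hep libraries. Its log2 change was -1.54 ± 0.045 (edgeR adjusted p = 2.40e-18), and it fell by 2.52 on the log2 scale in WT cells. Flcn went from 148, 152 and 138 CPM to 90.2, 96.7 and 90.01 CPM (-0.67 ± 0.053, edgeR adjusted p = 4.03e-10), and Fnip1 fell by 0.54 on the log2 scale. Rragc, which encodes RagC, went from 437, 421 and 443 CPM to 281, 263 and 271 CPM in KO cells (-0.68 ± 0.046, edgeR adjusted p = 2.78e-11). Its WT change was -0.79, and the interaction was not called (-0.11 ± 0.065, edgeR adjusted p = 0.165). Rragd, which encodes RagD, fell by 0.59 in KO and by 1.93 in WT cells. In the whole list the mean log2 CPM was 6.71 to 6.77 in KO PBS and 6.43 to 6.46 in KO ADP-Hep libraries, with no overlap.

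Lysosomal genes fell by less, but in greater number. Of 35 tested genes for lysosomal enzymes, membrane proteins and the V-ATPase proton pump, 25 fell and 0 rose at the edgeR threshold, with a median log2 change of -0.17 in KO and -0.24 in WT cells. Atp6v1a, the catalytic subunit of the pump, stood at 1166, 1179 and 1225 CPM in KO PBS and 789, 772 and 791 CPM in KO ADP-Hep libraries (-0.60 ± 0.044, edgeR adjusted p = 1.37e-10). Atp6v1c1 and Atp6v0d2, further subunits, fell by 0.47 and 0.35, Gla (alpha-galactosidase) by 0.35 and Lipa (lysosomal acid lipase) by 0.41 on the log2 scale. In WT cells Atp6v1a and Atp6v1c1 fell by 0.65 and 0.47, and their interactions were not called (-0.05 and 0.00). After ADP-Hep the list's mean log2 CPM lay at 8.88 to 8.92 in KO cells and 8.80 to 8.89 in WT cells, below its PBS values of 9.10 to 9.12 and 9.06 to 9.09. Of 20 tested autophagy genes 10 fell and 2 rose, and 6 fell and 1 rose in the fit with a replicate block. Beside the main counts of both lists, 15.3% of all genes tested fell and 13.7% rose. Gabarapl1, of the LC3 family, fell by 0.60 on the log2 scale, and Ulk2, a kinase that starts autophagy, rose by 0.31. Sqstm1, the receptor p62, fell from 748, 638 and 774 CPM to 422, 423 and 429 CPM in KO cells but rose by 1.53 in WT cells, with an interaction of 2.29 ± 0.091 (edgeR adjusted p = 2.13e-14). For the lysosome list, 0 genes had an unadjusted p under 0.05 for an increase, and for the folliculin list 1 gene. DESeq2 and limma-voom called 0 genes higher in either list. In bulk RNA a lower level in every cell cannot be told from fewer cells of a type that expresses the gene.

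The factors TFEB and TFE3 bind an E-box in the promoters of such genes. Stretches of Rragc, Gla and the clock gene Bhlhe41, all of which fell, are shown because each holds a match. They do not stand for all genes that fell. Fnip2, Flcn, Rragd, Sqstm1, Gabarapl1 and Lipa had no match in their promoter window. Capitals mark the E-box CACGTG, which reads the same on both strands; the stretches are from RefSeq's GRCm38.p6, 5′ to 3′ on the gene's strand and upstream of its start.
Rragc (chr4:123917296-123917351, plus strand): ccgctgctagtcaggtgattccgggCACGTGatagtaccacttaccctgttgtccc
Gla (chrX:134601169-134601255, minus strand): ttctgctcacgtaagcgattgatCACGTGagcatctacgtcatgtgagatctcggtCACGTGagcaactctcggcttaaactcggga
Bhlhe41 (chr6:145865543-145865598, minus strand): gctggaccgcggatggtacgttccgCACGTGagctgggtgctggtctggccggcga
The E-box was found in 244 of 1495 promoters of genes called lower (16.3%), in 8.84% of those called higher and in 1137 of all 9522 (11.9%). Among the lysosome, folliculin and autophagy lists 17 of 63 promoters held it (27.0%), and outside these lists the share among genes called lower was 16.0%. The longer TCACGTGAC, which contains the E-box, was found in 3.21% of promoters of genes called lower, 0.663% of those called higher and 1.93% of all. These shares cover called genes of any size. Among genes called lower by at least 2-fold, 14 of 102 promoters held the E-box (13.7%) and 1 held TCACGTGAC (0.98%). Clock factors and many others bind the same 6 letters, and genes called lower had a higher median GC content (51.1%) than genes called higher (46.7%) or all genes tested (49.4%), whose part in these shares was not tested.

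**Figure D3:**
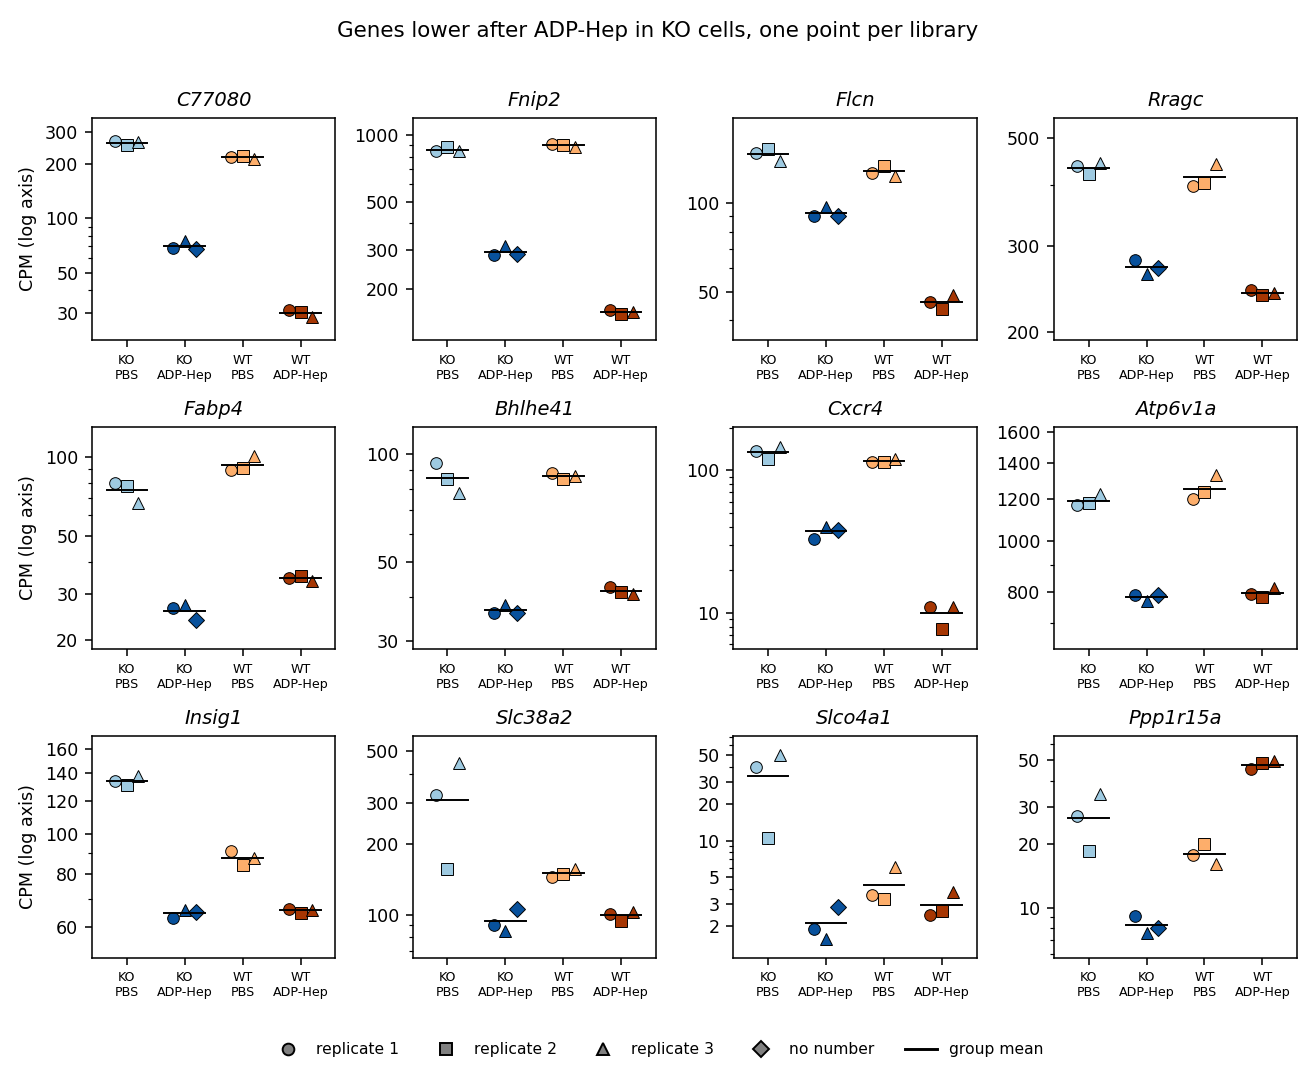
CPM on a log axis for 12 genes that fell in KO cells, in the 4 groups; each point is a library, shaped by its replicate number, and the bar is the group mean. KO ADP-Hep points lie below KO PBS points in every panel; for Slco4a1, Slc38a2 and Ppp1r15a the KO PBS points are spread, with replicate 2 lowest.

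The smallest p of all genes tested was that of C77080, an expressed sequence named here without a known role. It stood at 268, 255 and 266 CPM in KO PBS and 68.3, 74.6 and 67.9 CPM in KO ADP-Hep libraries, and at 219, 222 and 213 CPM and 30.9, 30.1 and 28.3 CPM in WT cells. The log2 change was -1.91 ± 0.049 (edgeR adjusted p = 2.43e-19), and it kept its call in all 19 alternatives, at -1.95 to -1.87. Cxcr4, the receptor of CXCL12 that holds cells in the marrow, went from 136, 119.6 and 146 CPM to 33.2, 40.3 and 38.4 CPM (-1.85 ± 0.091, edgeR adjusted p = 2.07e-10). For both genes the WT fall was larger and the interaction was called, at -0.95 and -1.72 on the log2 scale. Among chemokine receptors 4 of 8 tested rose in KO cells and 2 fell, against 13.7 and 15.3% of all genes. Ccr2, a receptor of inflammatory chemokines, rose by 0.71, and Ccrl2 fell by 1.06 on the log2 scale.

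Repressors and output genes of the circadian clock fell. Bhlhe41 stood at 94.5, 85.2 and 77.8 CPM in KO PBS and 36.1, 37.9 and 36.0 CPM in KO ADP-Hep libraries (-1.23 ± 0.061, edgeR adjusted p = 1.32e-13), and its relative Bhlhe40 fell by 1.30 on the log2 scale. Both encode repressors that act on E-boxes, and in WT cells they fell by 1.07 and 1.13 with interactions that were not called (0.17 and 0.18). Dbp, a clock output factor, went from 24.2, 29.1 and 25.9 CPM to 14.2, 13.8 and 11.3 CPM (-1.02 ± 0.10, edgeR adjusted p = 3.91e-08). Per1 fell by 0.62 and the nuclear receptor gene Rora by 0.91 on the log2 scale. Of 17 tested clock genes 9 fell and 1 rose (15.3 and 13.7% of all genes), with a median of -0.36 in KO and -1.06 in WT cells. Other macrophage regulators fell too: Pparg, the lipid-sensing nuclear receptor of macrophages, went from 16.8, 16.2 and 16.7 CPM to 9.91, 9.19 and 10.4 CPM (-0.74 ± 0.085, edgeR adjusted p = 2.80e-07), and Runx1 fell by 0.54. Mef2c, by contrast, rose by 0.64 in KO cells and fell by 0.68 on the log2 scale in WT cells. Of 18 tested macrophage lineage factors, 9 fell and 3 rose, against 15.3 and 13.7% of all genes.

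In lipid handling, 11 of 23 tested genes of cholesterol synthesis and uptake fell and 12 were not called. In fatty acid synthesis and desaturation, 4 of 13 fell and 9 were not called (2 fell without the unnumbered library). Beside each list of this paragraph, 15.3% of all genes tested fell and 13.7% rose. Fabp4, a fatty acid carrier and a target of PPARG, stood at 79.8, 78.0 and 67.2 CPM in KO PBS and 26.5, 27.3 and 23.9 CPM in KO ADP-Hep libraries (-1.54 ± 0.071, edgeR adjusted p = 3.06e-14). In WT cells it went from 89.3 to 101 CPM to 33.6 to 35.3 CPM, and the interaction was not called (0.10 ± 0.097, edgeR adjusted p = 0.437). In neither the cholesterol nor the fatty acid list did a gene rise at the edgeR threshold. At an unadjusted p under 0.05, 1 gene of the cholesterol list was higher and 0 of the fatty acid list, and DESeq2 and limma-voom called 0 higher in either. Insig1, which holds the sterol sensor in the endoplasmic reticulum, went from 134, 131 and 138 CPM to 63.0, 65.8 and 64.9 CPM (-1.06 ± 0.048, edgeR adjusted p = 2.49e-14). The synthesis enzyme genes Hmgcs1 (HMG-CoA synthase) and Fdft1 (squalene synthase) fell by 0.42 and 0.49 on the log2 scale. In WT cells both rose, by 0.15 and 0.51. Both stood higher with PBS in KO than in WT cells, Hmgcs1 at 201 to 208 against 153 to 158 CPM and Fdft1 at 42.4 to 47.8 against 29.4 to 30.5 CPM. The list's mean log2 CPM fell from 5.91 to 6.00 down to 5.70 to 5.76 in KO cells, which still lay above WT PBS (5.54 to 5.58). Fasn, the fatty acid synthase, fell by 0.69 on the log2 scale, and Plin2, the lipid droplet coat, by 0.49. Abca1, the cholesterol exporter, rose by 0.36 (0.23 without KO PBS replicates 1 and 3), against 7 lower and 2 higher of 13 tested LXR target and efflux genes.

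Several stress genes fell from KO PBS levels that were themselves uneven. Slco4a1, an organic anion transporter, stood at 39.9, 10.4 and 50.4 CPM in KO PBS and 1.89, 1.57 and 2.89 CPM in KO ADP-Hep libraries. The log2 change was -3.91 ± 0.66 (edgeR adjusted p = 0.00233), and -2.27 without replicates 1 and 3 of KO PBS. In WT cells given PBS its level was 3.35 to 6.03 CPM, under all KO PBS libraries. Slc38a2, an amino acid transporter, went from 323, 157 and 446 CPM to 90.6, 85.2 and 106 CPM, with WT PBS at 145 to 157 CPM. Its call (-1.71 ± 0.32, edgeR adjusted p = 0.00429) was lost in a fit of the KO libraries only, and its size was -0.74 without KO PBS replicates 1 and 3. Ppp1r15a, which encodes the stress phosphatase subunit GADD34, went from 27.1, 18.6 and 34.5 CPM to 9.16, 7.62 and 7.97 CPM (-1.65 ± 0.21, edgeR adjusted p = 0.000226), with WT PBS at 16.2 to 20.1 CPM. Atf4, the central factor of the integrated stress response, went from 131, 98.2 and 125 CPM to 58.2, 62.8 and 65.0 CPM (-0.93 ± 0.090, edgeR adjusted p = 1.16e-06). WT PBS libraries held 92.0 to 108 CPM, so the KO ADP-Hep level of Atf4 lay below both PBS groups. Of 27 tested targets of this response 10 fell and 3 rose (1 without KO PBS replicate 3 or the unnumbered library), against 15.3 and 13.7% of all genes. The list's mean log2 CPM went from 4.96 to 5.15 down to 4.70 to 4.74 in KO cells, within the WT PBS range of 4.64 to 4.93.

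Of 33 tested immediate-early and AP-1 genes 12 fell, 1 rose and 20 were not called in KO cells. Over all genes tested 15.3% fell and 13.7% rose, the shares to set beside each list in this paragraph. Jun, a subunit of AP-1, stood at 120.1, 106 and 113 CPM in KO PBS and 62.3, 65.9 and 66.5 CPM in KO ADP-Hep libraries (-0.80 ± 0.057, edgeR adjusted p = 7.66e-11). WT libraries held 114 to 122 CPM with PBS and 114 to 126 CPM with ADP-Hep, and the interaction was 0.79 ± 0.079 (edgeR adjusted p = 5.70e-09). Atf3 and Klf6 fell by 0.79 and 0.57 on the log2 scale, Egr2 fell by 1.97 from 1.80 to 2.09 CPM, and Klf10 rose by 0.62. Dusp4, a phosphatase that shuts off ERK, went from 11.5, 6.35 and 12.7 CPM to 1.51, 1.57 and 1.89 CPM (-2.57 ± 0.25, edgeR adjusted p = 1.39e-06), where KO PBS replicate 2 was the lowest PBS library and still above all ADP-Hep libraries. Dusp1, another such phosphatase, stood at 16.8, 10.4 and 16.6 CPM in KO PBS and 6.85, 8.56 and 7.07 CPM in KO ADP-Hep libraries. It fell by 0.97 on the log2 scale, by 0.51 without KO PBS replicates 1 and 3, and rose by 2.73 in WT cells. Of 16 tested MAP kinase feedback genes 8 fell and 1 rose, and 5 fell without KO PBS replicates 1 and 3. Of 20 tested genes of CSF1 receptor and growth signalling 6 fell, 2 rose and 12 were not called, with a median of -0.08. That compares with 15.3% of all genes lower and 13.7% higher. With any 1 KO library left out, except KO ADP-Hep replicate 1, only 1 rose. Irs2, an insulin receptor substrate, fell by 1.33 and Cblb, a ubiquitin ligase, by 0.98 on the log2 scale.

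**Figure D4:**
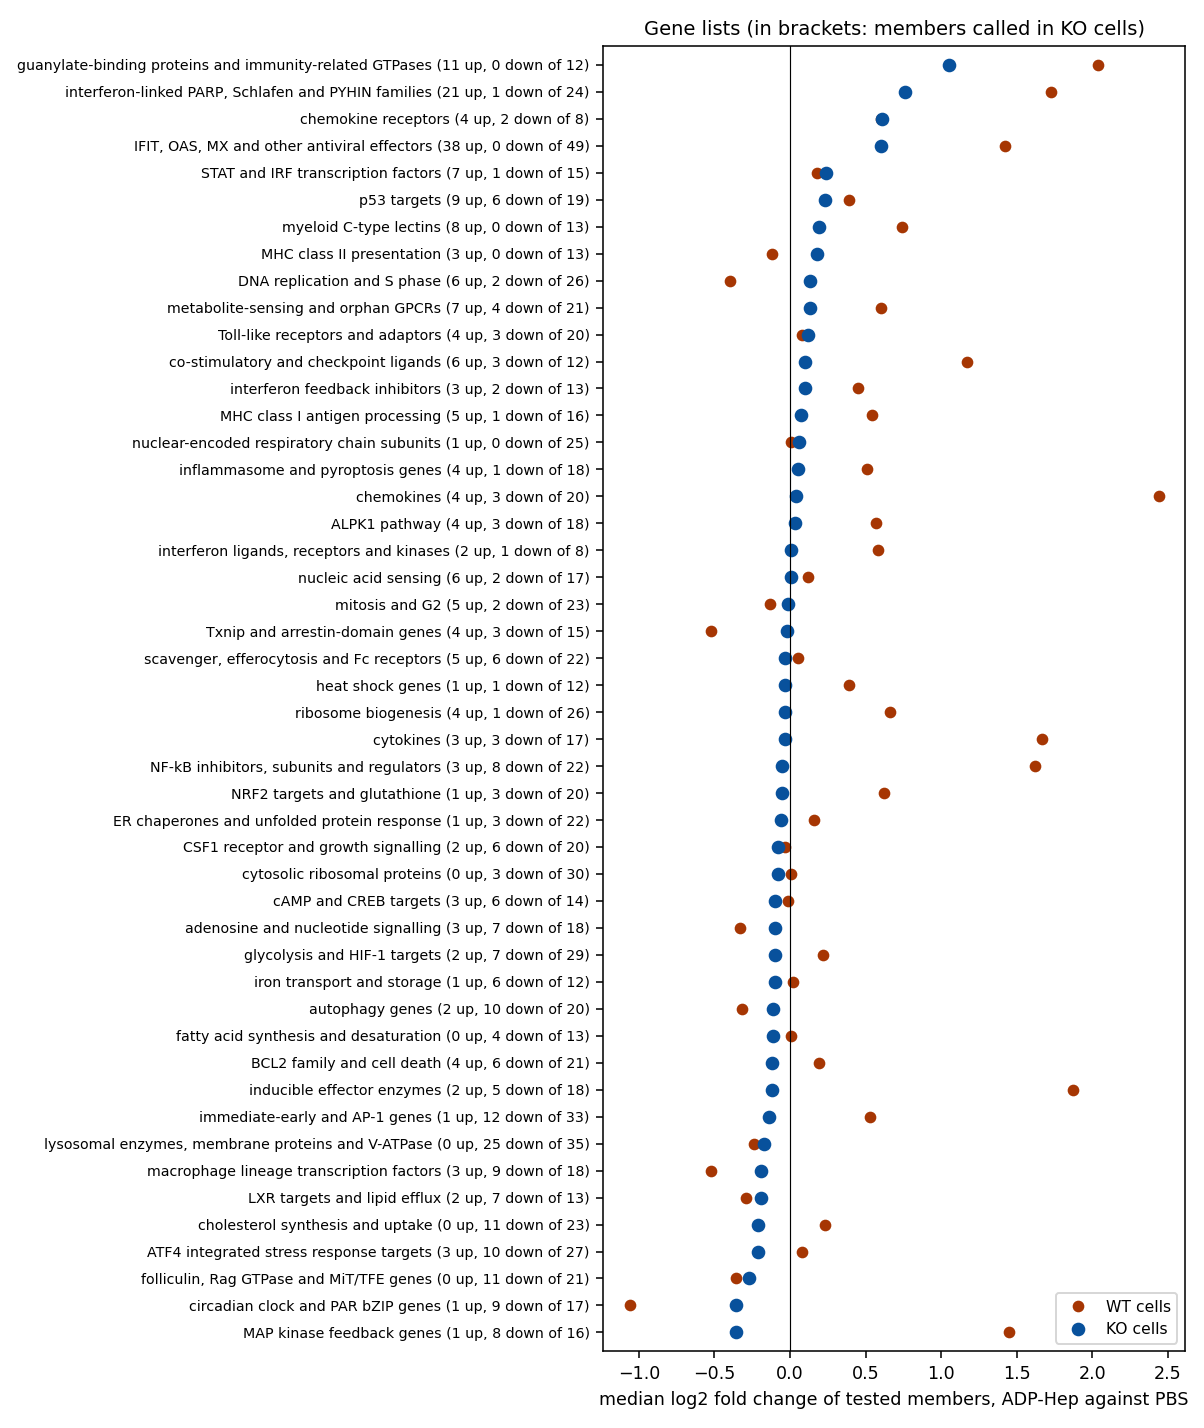
Median log2 change after ADP-Hep of each gene list with 8 or more tested members, for KO cells (blue) and WT cells (brown). The 3 interferon-stimulated lists have the highest KO medians except for the chemokine receptors, at 0.60 to 1.05, and the NF-kB, cytokine and chemokine lists have KO medians near 0 beside WT medians of 1.62 to 2.44.

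A set of genes changed in opposite directions in the 2 genotypes. Slamf7, a surface receptor of the SLAM family, stood at 158, 145 and 153 CPM in KO PBS and 64.4, 68.3 and 63.7 CPM in KO ADP-Hep libraries, and at 131, 119 and 128 CPM and 176, 172 and 176 CPM in WT cells. The KO change was -1.22 ± 0.051, and the interaction was 1.69 ± 0.071 (edgeR adjusted p = 3.67e-16). Plek, the pleckstrin gene, fell from 388 to 412 CPM to 230.1 to 248 CPM in KO cells and rose to 1859 to 1939 CPM in WT cells. Ptafr (the receptor of platelet-activating factor), Fam20c (a kinase of secreted proteins), Pim1 (a growth kinase), Ralgds (an activator of Ral GTPases) and Tnfaip2 fell by 0.86, 1.11, 1.38, 1.29 and 0.79 on the log2 scale in KO cells. In WT cells these 5 genes rose, by 0.60, 0.45, 0.997, 1.71 and 2.10. Txnip, an inhibitor of thioredoxin and of glucose uptake, went the other way, from 308, 334 and 313 CPM to 636, 648 and 597 CPM in KO cells (0.98 ± 0.048, edgeR adjusted p = 1.24e-13) and from 246 to 275 CPM down to 206 to 208 CPM in WT cells. Its relative Arrdc4 rose in both genotypes, by 0.98 and 0.78. The 8 genes were chosen for the smallest KO p among genes that moved in opposite directions, so their opposition is a description.

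**Figure D5:**
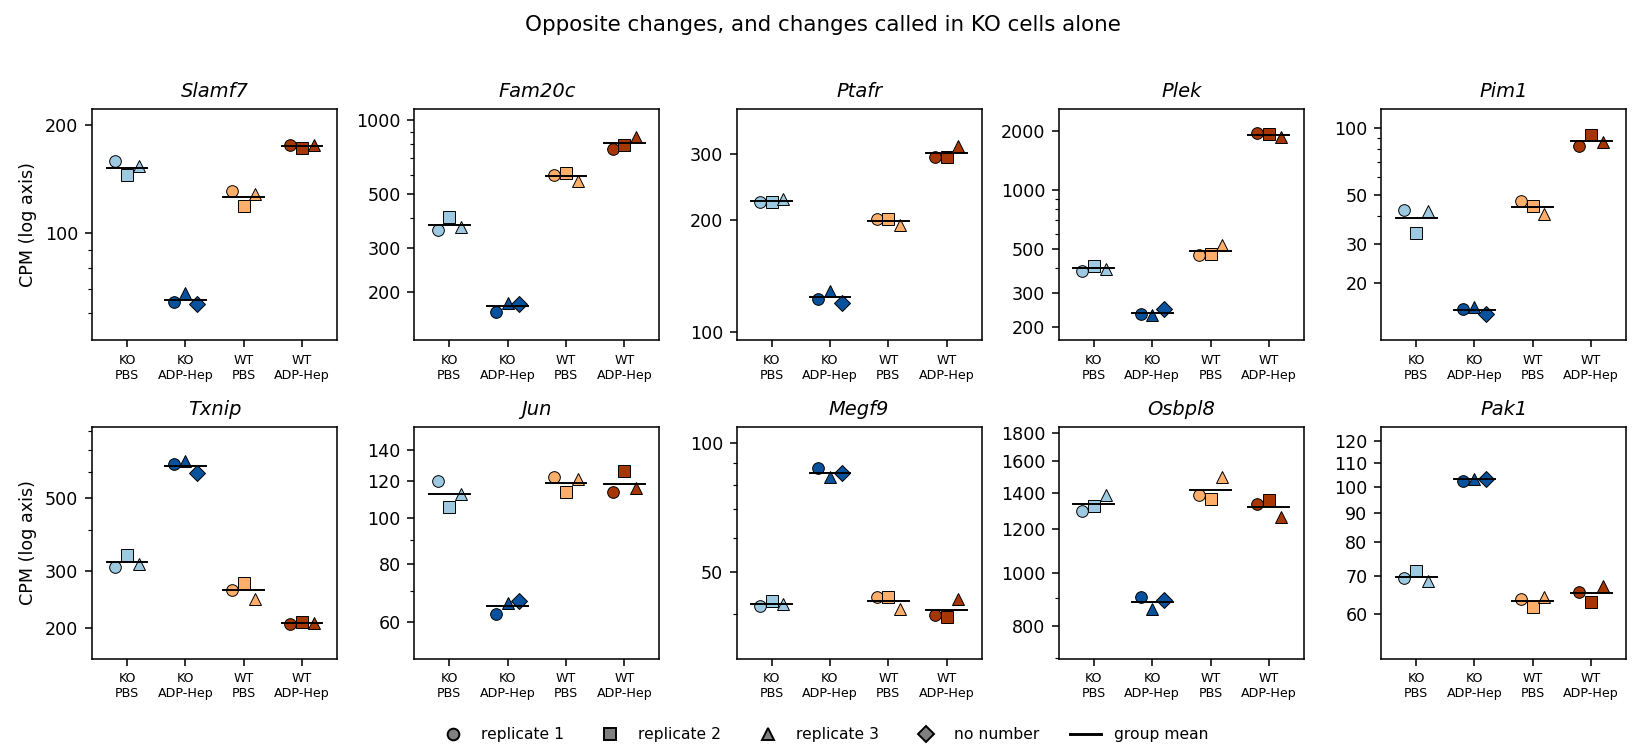
CPM on a log axis for 10 genes in the 4 groups, chosen because the KO and WT changes were opposite or because the change was called in KO cells and not in WT cells; each point is a library and the bar is the group mean. For Slamf7 to Pim1 the KO points fall and the WT points rise after ADP-Hep, for Txnip the reverse holds, and for Jun, Megf9, Osbpl8 and Pak1 the WT groups lie at like levels.

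Other genes were called in KO cells and not in WT cells, with the interaction called. Megf9, a transmembrane protein, stood at 41.6, 42.7 and 42.1 CPM in KO PBS and 87.3, 83.1 and 85.3 CPM in KO ADP-Hep libraries (1.02 ± 0.054, edgeR adjusted p = 4.14e-13), and at 41.0 to 43.8 CPM and 39.3 to 43.4 CPM in WT cells. Pak1, a kinase of the actin cytoskeleton, rose by 0.56 and Frmd6 by 0.88 on the log2 scale. Osbpl8, a lipid transfer protein of the endoplasmic reticulum, went from 1298 to 1385 CPM to 860.5 to 901 CPM, and Myo1e, Tgif1 and Npepps fell by 0.65, 0.67 and 0.56. A further group changed in the same direction in both genotypes with no interaction called. Klhl21, Spdl1, Plekhm2, Wdr91 and Zfand2a fell by 1.27, 0.96, 0.94, 0.79 and 1.05 on the log2 scale in KO cells. Their WT log2 changes were -1.49, -1.01, -1.08, -0.78 and -1.22. Sla, an adaptor that dampens receptor signalling, rose from 40.1, 43.1 and 47.9 CPM to 79.6, 80.3 and 85.2 CPM in KO cells and by 0.83 on the log2 scale in WT cells. An interaction that was not called does not show that the genotypes responded alike.

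Surface receptors changed in both directions. Cx3cr1, the fractalkine receptor, stood at 20.1, 22.3 and 20.7 CPM in KO PBS and 41.0, 41.7 and 43.9 CPM in KO ADP-Hep libraries (1.000 ± 0.063, edgeR adjusted p = 8.18e-12), well below the 71.3 to 74.3 CPM of WT PBS cells. Gpr65, a proton sensor, went from 35.0, 43.4 and 34.6 CPM to 74.3, 74.9 and 79.8 CPM (1.01 ± 0.077, edgeR adjusted p = 1.08e-09), and Gpr35 rose by 1.09 on the log2 scale. Fcgr1, the high-affinity IgG receptor and an interferon-induced gene, went from 118, 126 and 114 CPM to 207, 224 and 192 CPM (0.80 ± 0.062, edgeR adjusted p = 9.38e-10). The co-stimulatory ligand gene Cd86 rose by 0.71, while the checkpoint ligand gene Cd274 fell from 40.6 to 47.3 CPM to 26.5 to 29.5 CPM. Cd274 rose by 1.74 in WT cells. Of 13 tested myeloid C-type lectins 8 rose and 0 fell at the edgeR threshold, Clec4a2 by 0.53 and Clec4a1 by 0.37, but 4 to 5 rose without KO PBS replicate 2, KO PBS replicate 3 or KO ADP-Hep replicate 1, and 3 without KO PBS replicates 1 and 3 together. Over all genes tested 13.7% rose and 15.3% fell. No lectin had an unadjusted p under 0.05 for a fall, and DESeq2 and limma-voom called 0 lower. Mertk, the receptor for dying cells, and its ligand gene Gas6 fell by 0.40 and 0.28 on the log2 scale.

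Markers of neutrophils, which marrow cultures can hold, moved with the treatment. Their summed level (12 of 12 detected) was 244 to 273 CPM in KO PBS and 171 to 181 CPM in KO ADP-Hep libraries, and 209 to 231 CPM and 205 to 227 CPM in WT libraries. Csf3r, the receptor of G-CSF, made up the largest share and went from 121, 133 and 117 CPM to 80.2, 89.5 and 75.6 CPM (-0.61 ± 0.075, edgeR adjusted p = 4.67e-06). The granule genes Ngp and Ltf fell by 0.61 and 0.65 on the log2 scale. In all, 5 of 10 tested markers fell and 0 rose at the edgeR threshold, and 3 fell without KO PBS replicates 1 and 3; no marker had an unadjusted p under 0.05 for an increase, and DESeq2 and limma-voom called 0 higher. Markers of haematopoietic progenitors and mast cells (with Mcpt8 and Fcer1a at 0 counts in KO libraries) summed to 17.5 to 18.9 CPM in KO PBS and 14.5 to 15.9 CPM in KO ADP-Hep libraries, and to 21.7 to 23.5 CPM and 3.83 to 4.44 CPM in WT libraries. Of 3 tested, 2 fell in KO cells, Kit by 1.94 and Sox4 by 0.28 on the log2 scale, and 1 fell without KO PBS replicate 2 or KO ADP-Hep replicate 1. The change of Kit ran from -2.80 to -1.36 over the 16 alternatives that tested it. Beside the counts of both marker lists, 15.3% of all genes tested fell. The part of either cell type in the falls above was not tested. Markers of B and plasma cells summed to 59.7 to 67.4 CPM in KO PBS and 71.8 to 75.5 CPM in KO ADP-Hep libraries, with Pax5 at 0 counts.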

How the data were processed

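Total RNA was made into stranded mRNA libraries, per the labels' protocols. The deposited table holds whole-number counts per Ensembl gene ID. The submitters' processing notes name the aligner STAR, the counters featureCounts and RSEM, DESeq2, Trim Galore and FastQC, and the builds hg38 and mm10, without role or version. The counting tool, annotation and strandedness option are likewise not given in the sources used here, so overlapping genes, antisense partners and near copies may share reads.

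Far down the table the KO values sit 1 row below their gene IDs, so only the first 37542 rows were used, holding 71.3 to 85.2% of each library's 16110654 to 31333973 counts, and 19206 rows were not analysed by gene. Across genes the mean log2 values of KO and WT libraries correlated at 0.996 in the rows used and 0.042 below them. IDs were named through GENCODE M21. Columns were matched to libraries by name.

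Counts as deposited were tested with edgeR 4.0.16 (R 4.3.3; TMM scaling, filterByExpr, robust quasi-likelihood, 4 group means over 12 libraries, Benjamini-Hochberg adjusted p under 0.05). The given errors are log2 fold changes divided by the root of F. Alternatives used limma 3.58.1, DESeq2 1.42.0, other scalings, filters and left-out libraries, and the code was tested on simulated data. CPM values used TMM library sizes, and list means used log2 of CPM plus 0.5. No 2 KO libraries of a group agreed within sampling noise (chi-square per degree of freedom 3.98 to 10.6 between KO replicates).

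The main fit did not pair libraries by replicate number. Deviations of same-numbered libraries from their group means correlated at 0.0959 and -0.0628 in KO cells and at 0.0678, -0.124 and -0.148 in WT cells. These few values cannot show whether same-numbered libraries share a culture or animal.

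Named genes are the 15 largest increases and decreases at 5 CPM or more without overlap, up to 5 called members of each of 57 lists (1053 genes) by smallest p, all members of the interferon ligand and ALPK1 lists, and 8 genes by smallest p for each pattern of KO and WT calls. The members and lists were chosen with earlier results of these data known.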

Additional observations from a re-analysis of the deposited data

Results flagged for a closer look

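The response to ADP-Hep differed between WT and KO cells, by the edgeR test of the difference itself, for 6071 of 12261 genes. For 747 of these both responses were called, in opposite directions. Among the genes named for this, the difference (WT minus KO response, log2) was 3.00 for Ralgds, 2.89 for Tnfaip2, 2.72 for Plek, 2.38 for Pim1, 1.69 for Slamf7, 1.55 for Fam20c, 1.46 for Ptafr and -1.31 for Txnip. These genes were chosen for their opposite calls, so the values describe them.

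The part of the table where KO values are out of step with the gene IDs still held a signal between the KO libraries, compared row by row and without gene names. Of 722 such rows tested in KO libraries, 114 were called between ADP-Hep and PBS, 46 higher and 68 lower.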

How the results depend on the processing

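Relative to the 1678 genes called higher and 1870 called lower in KO cells, leaving out both KO PBS replicates 1 and 3, a setting chosen after seeing the data that keeps 1 KO PBS library and assumes it varies like the other groups, gave 661 and 1054. A test against a 1.5-fold change (glmTreat) gave 54 and 113. Leaving out each KO library in turn gave 1179 to 1589 higher and 1406 to 1826 lower. Leaving out each library gave 3642 to 3924 higher and 3499 to 3798 lower in WT cells, and interactions of 2774 to 3023 with WT above KO and 2772 to 2945 below. With a replicate block, and the unnumbered library left out, the KO counts were 1169 and 1414, and 69.4% of the main calls were also called; the replicate numbers are not known to mark shared cultures. DESeq2 called 1310 and 1693, and limma-voom 1652 and 1870. The other settings gave counts within 1.5 times of the main ones, and the cause of each difference was not tested. Of 265 named genes called in KO cells, 195 kept their call and direction in every alternative other than glmTreat, 70 lost the call in at least 1, and 0 changed sign. Of 231 named interactions called, 196 kept their call. That of Grb2 (0.15) turned to -0.01 with library totals as scaling. Depth limits the genes under 1 CPM, which were 15 of the 94 called higher and 24 of the 135 called lower by at least 2-fold.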

Other observations

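Targets of the tumour suppressor p53 split in KO cells, with 9 of 19 tested higher and 6 lower (3 lower without KO PBS replicates 1 and 3). Sesn1, a stress-induced inhibitor of mTORC1, rose from 327, 367 and 346 CPM to 522, 489.6 and 514 CPM (0.55 ± 0.050, edgeR adjusted p = 4.16e-09) and fell by 0.91 on the log2 scale in WT cells. Trp53inp1 rose by 0.31 in KO and fell by 1.40 in WT cells. Gadd45a, a growth arrest gene, went the other way, from 13.7, 10.25 and 7.90 CPM to 3.74, 2.83 and 3.78 CPM in KO cells (-1.59 ± 0.16, edgeR adjusted p = 7.49e-08), against a WT change of 0.40. Among cell death regulators, Bcl2a1b fell from 11.5, 12.2 and 12.3 CPM to 5.25, 5.89 and 6.62 CPM in KO cells (-1.02 ± 0.13, edgeR adjusted p = 1.74e-06) and rose by 1.41 in WT cells, but it has near-identical copies whose reads may have been shared. Over that list 4 of 21 tested genes were higher and 6 lower. Beside the counts of both lists, 13.7% of all genes tested were higher and 15.3% lower.

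Several genes with large falls belong to none of the lists. Vash2, a secreted relative of the angiogenesis inhibitor vasohibin, went from 3.95, 5.69 and 5.48 CPM to 1.30, 2.20 and 1.59 CPM (-1.64 ± 0.20, edgeR adjusted p = 6.13e-07). Adra1a, an adrenergic receptor, went from 16.0, 15.4 and 13.4 CPM to 5.08, 4.63 and 4.83 CPM and fell by 0.93 on the log2 scale in WT cells. Zfp503 and Eya1, which encode transcriptional regulators, had log2 changes of -1.54 and -1.498 in KO cells. In all 4 genes the KO groups did not overlap, which the rule that named them required. Genes of the nuclear-encoded respiratory chain changed little: 1 of 25 tested was higher and 0 lower in edgeR, with 1 lower at an unadjusted p under 0.05 and 1 lower each in DESeq2 and limma-voom. Of 7 tested mitochondrially encoded mRNAs 0 were called in either direction by edgeR, DESeq2 or limma-voom, and 0 had an unadjusted p under 0.05. Their median log2 change was 0.27 in KO and 0.36 in WT cells. Their mean log2 CPM was uneven, at 8.47 to 9.65 in KO PBS and 9.08 to 9.78 in KO ADP-Hep libraries. The lack of calls therefore does not show that they were unchanged. Of 30 tested cytosolic ribosomal protein genes 3 were lower and 0 higher, the latter also at an unadjusted p under 0.05 and with DESeq2 and limma-voom. Among all genes tested 15.3% were lower and 13.7% higher in edgeR.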
